A study of Homo sapiens with 48 samples.

Results

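The genes described here are 49 interferon-stimulated genes, taken by symbol from a list of well-known targets of interferon signalling, out of 29744 gene rows in the count table. The list was chosen with earlier results of these data known. Its shares, set beside those of all genes, therefore describe the list and are not an independent test. All 49 were found. After genes with few counts were set aside, 46 of them could be tested in the CRISPR knockout arm of the study and 49 in the CRISPR activation arm. CMPK2, HERC5 and ISG20 were not tested in the knockout arm, where their highest counts in any library were 19, 17 and 10.

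The samples were 48 bulk RNA libraries from immortalised human skin fibroblasts of the line CRL-4001, which carry an mNeonGreen reporter in the gene for the cytokine IL-11. Cells were cultured with TGFβ and IL-1β at 10 ng/ml each for 0, 6, 12 or 24 h, with 3 libraries for every population and time. The paper describes a reverse time course, with cytokines added at staggered times and RNA taken at the end of 24 h. The 0 h libraries are thus untreated cells and not an earlier sampling. In the knockout arm, cells with the nuclease Cas9 received a non-targeting guide (H47_Ctrl) or a guide against the transcription factor GLIS3 (H47_KO). In the activation arm, cells with dCas9–VP64, a Cas9 that does not cut fused to a transcriptional activator, received a non-targeting guide (VP64_Ctrl) or a guide to the GLIS3 locus (VP64_A). All 4 populations were drug-selected pools that share the reporter background, and the arms are separately engineered lines, so that arm and any difference in engineering or handling cannot be told apart. The cell-line field of the labels names a GLIS3 knockout for every sample, and in the activation arm the titles and the descriptions name opposite samples as the control. Groups here follow the descriptions. The GLIS3 level went with them, at 1.91 to 6.31 CPM (counts scaled to a common library size with TMM factors) in VP64_Ctrl and 16.6 to 36.7 CPM in VP64_A. In the knockout arm GLIS3 lay between 1.45 and 6.47 CPM in H47_Ctrl and between 0.144 and 1.63 CPM in H47_KO. GLIS3 was thus lower in H47_KO by an average log2 fold change of -1.68 and higher in VP64_A by 3.05.

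Type I interferons are secreted by cells that sense viral nucleic acid or other danger signals, and act through a receptor whose kinases JAK1 and TYK2 phosphorylate transcription factors, STAT2 among them. With IRF9, STAT2 is part of the complex ISGF3, which binds the interferon-stimulated response element (ISRE) in front of its target genes, while interferon-γ acts mainly through the GAS element. The products of these genes block viral entry, translation and replication, sense foreign RNA or feed back on the pathway, and some of them, IRF1 among them, are also direct targets of NF-κB, which IL-1β activates.

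Promoter sequences of 39 of the 49 genes were present in the RefSeq table used (assembly GRCh38.p14), each covering 250 bases before and 50 after a start site, in 52 windows because some genes have several. The others, GBP2, MX2, IRF7, IFITM2, OAS2, DHX58, OASL, IFIT2, USP18 and TRIM22, had no entry. The ISRE-like letters GAAANNGAAA, read on both strands, occurred in 27 of the 39 genes and in 61.5% of their windows, against 3.57% of all 35116 windows of that length. The following excerpts are shown because they come from genes whose RNA values are given in detail further on. Capitals mark a single match per excerpt, which appears as its reverse complement where it lies on the opposite strand. Each excerpt is printed along its gene's own strand. They lie at chr1:1013378-1013411 (ISG15, plus strand), chr10:89392508-89392541 (IFIT1, plus strand), chr12:112938319-112938352 (OAS3, plus strand), chr21:41431842-41431875 (MX1, plus strand), chr11:320874-320907 (IFITM3, minus strand) and chr1:89065314-89065347 (GBP1, minus strand), all upstream of the annotated start site.
ISG15: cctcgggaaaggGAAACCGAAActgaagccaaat
IFIT1: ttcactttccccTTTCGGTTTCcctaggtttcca
OAS3: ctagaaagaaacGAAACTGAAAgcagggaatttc
MX1: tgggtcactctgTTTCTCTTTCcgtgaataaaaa
IFITM3: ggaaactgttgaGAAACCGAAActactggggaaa
GBP1: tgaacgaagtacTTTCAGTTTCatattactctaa
In these excerpts the marked match begins 107 bases (ISG15), 103 bases (IFIT1), 143 bases (OAS3), 196 bases (MX1), 35 bases (IFITM3) and 127 bases (GBP1) before the start site. The ISG15 excerpt also holds an overlapping match that begins 113 bases before the start site, partly in lower case. The GAS-like letters TTCNNNGAA occurred in 13 genes and 28.8% of the windows, against 7.66% of all windows, and the NF-κB-like letters GGGANTTTCC in DDX58, IFIH1 and OAS3 and 5.77% of the windows, against 0.558% of all. The motifs were searched separately and may overlap one another. A match describes letters only and says nothing about binding in these cells.

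**Figure D1:**
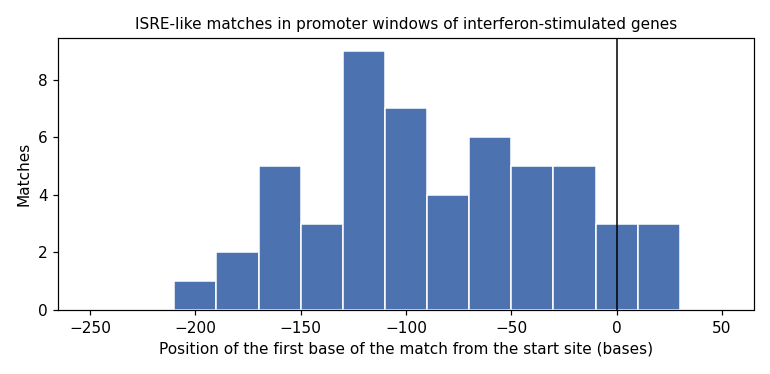
Positions of the ISRE-like matches in the promoter windows of the interferon-stimulated genes. The horizontal axis is the position of the first base of each match relative to the start site (bases, negative before it) and the vertical axis the number of matches per 20-base bin. Of 53 matches, 42 began within 150 bases before the start site and 3 after it. Overlapping windows show 5 genomic sites more than once, so that the matches lie at 48 distinct sites.

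Total counts per library ranged from 2321990 to 10661004 and TMM factors from 0.681 to 1.84. The cells carried the marker genes of their label: 10 fibroblast markers summed to between 17789.8 and 134744 CPM, while 9 immune cell markers summed to at most 82.6 CPM, with CD163, LYZ, CD3E and ITGAM among those under 1 CPM throughout. Endothelial markers summed to at most 4.59 CPM and epithelial and keratinocyte markers to at most 102 CPM. Nothing in the labels says that the 3 libraries of a condition came from separate cultures. The paper's reporting summary gives its in vitro experiments 3 or more independent biological replicates, without saying how these libraries were kept separate. P-values here measure the spread between these libraries, which may be technical. In bulk RNA, a higher share of responding cells and more RNA per responding cell cannot be told apart. Libraries of one condition often moved together over these genes: H47_Ctrl 24 h replicate 3 was the highest of its 3 libraries for 46 of the 49 genes, H47_KO 24 h replicate 3 the lowest for 42, and H47_Ctrl 12 h replicate 3 the lowest for 44. In the activation arm, replicate 1 was the highest at 24 h for 46 genes in VP64_A and for 42 genes in VP64_Ctrl. Replicate 1 was also the highest of both populations of that arm at 12 h, for 34 and 38 genes. Such ranks were not taken over all tested genes, so whether these shifts were particular to the 49 genes was not tested.

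In the untreated cells (0 h) the genes were already transcribed, led by the membrane proteins that block viral entry. In TPM, a unit scaled to library size that also corrects for transcript length, IFITM3 was the highest of the 49 in each of the 16 conditions, at 1647 ± 249 TPM in H47_Ctrl and 2705 ± 331 TPM in VP64_Ctrl at 0 h (SD, n = 3). IFITM2 was the next in H47_Ctrl at 600.4 TPM, and IFI6, a mitochondrial and endoplasmic reticulum protein of antiviral defence, the next in VP64_Ctrl at 953 TPM. The median of the 49 genes at 0 h was 4.59 TPM in H47_Ctrl, 4.86 TPM in H47_KO, 9.94 TPM in VP64_Ctrl and 5.73 TPM in VP64_A. By 24 h the summed share of the 49 genes had gone from 0.324% to 0.46% of all TPM in H47_Ctrl and from 0.479% to 0.791% in H47_KO. It had gone from 0.641% to 2.62% in VP64_Ctrl and from 0.466% to 2.5% in VP64_A, where 20 and 16 genes then exceeded 100 TPM. The summed TPM of single libraries overlapped between 0 and 24 h in the knockout arm. It spanned 2885 to 3611 and then 3108 to 6242 in H47_Ctrl, and 4117 to 5538 and then 4552 to 11373 in H47_KO. In VP64_Ctrl and VP64_A the libraries of the 2 times did not overlap. IFITM3 made up 1647 of the mean sum of 3237 TPM in H47_Ctrl at 0 h. At 24 h IFI6 stood directly below IFITM3 in all 4 populations, at 730 ± 193 TPM in H47_Ctrl and 5800 ± 1070 TPM in VP64_Ctrl.

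**Figure D2:**
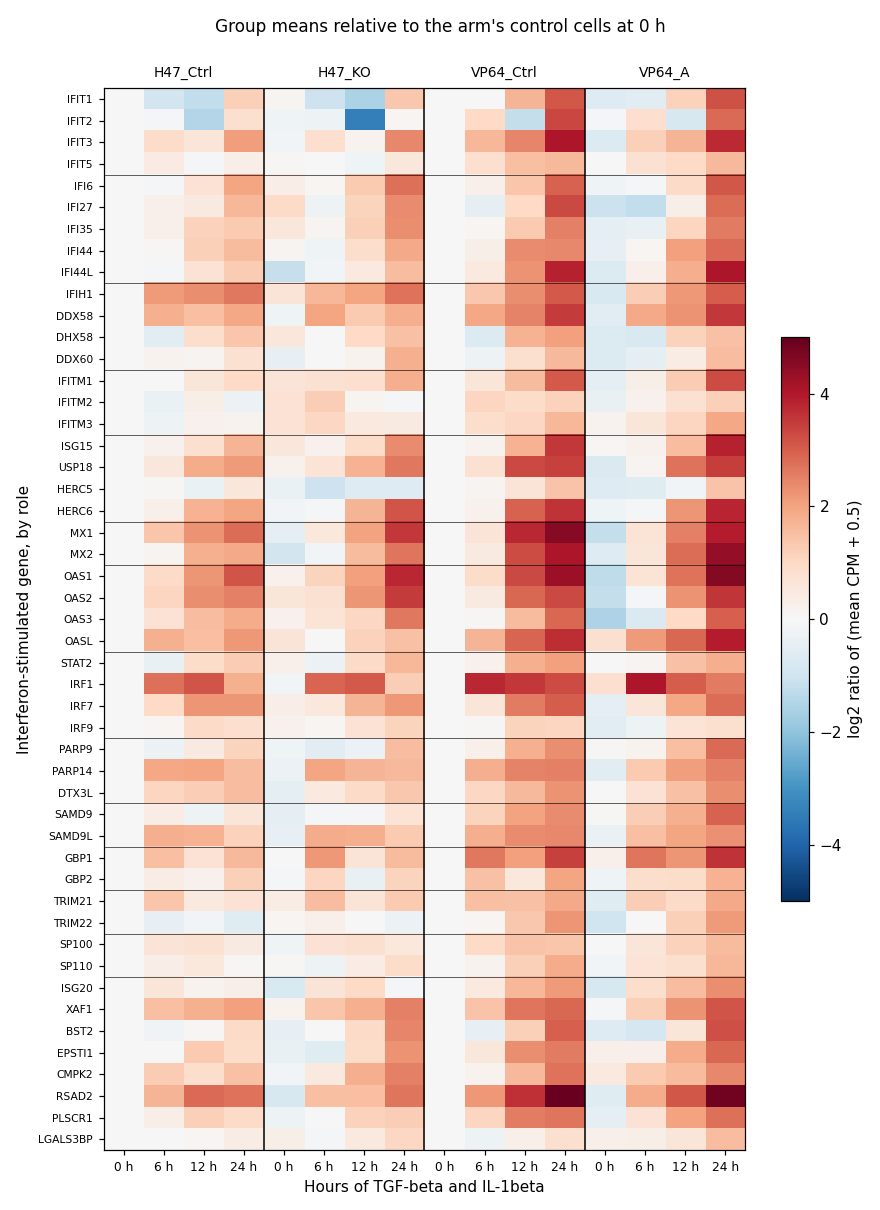
Heat map of the 49 genes, grouped by role in rows, over the 4 populations and 4 times in columns. Colour is the log2 ratio of the mean CPM (plus 0.5) to that of the same arm's control cells at 0 h, red for higher and blue for lower. The reds deepen towards 24 h in every population and are strongest in VP64_Ctrl and VP64_A, while IRF1 is already red at 6 h and IFIT2 is blue at 12 h.

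The first comparison asked how the genes moved with time in the presence of TGFβ and IL-1β. They rose late and broadly. In H47_Ctrl, 12 of 46 genes were higher at 6 h than at 0 h (edgeR, adjusted p under 0.05), 24 at 12 h and 31 at 24 h, where 10.3%, 11.3% and 6.53% of all tested genes were. In VP64_Ctrl, 23 of 49 were higher at 6 h, 44 at 12 h and 48 at 24 h, against 16.2%, 15.3% and 10.4% of all tested genes. H47_KO gave 11, 24 and 37 of 46 genes against 13.2%, 14.4% and 9.07% of all, and VP64_A 28, 45 and 49 of 49 against 11.4%, 12.6% and 9% of all. The median log2 fold change of the genes over 0 h was 0.37, 0.96 and 1.48 at 6, 12 and 24 h in H47_Ctrl and 0.68, 1.84 and 2.87 in VP64_Ctrl. It was 0.32, 0.71 and 1.77 in H47_KO and 0.86, 1.80 and 3.22 in VP64_A, while the median over all tested genes stayed between -0.10 and 0.02 in the 12 comparisons. The genes reached their highest mean CPM at 24 h in 33 cases of 49 in H47_Ctrl, 37 in H47_KO, 46 in VP64_Ctrl and 48 in VP64_A.

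The direction of the median at 6 h depended on the scale. On log2(TPM + 0.1), which is not corrected for library composition, the median over all tested genes at 6 h against 0 h was -0.81 in VP64_Ctrl and -0.55 in H47_KO. The median of the interferon-stimulated genes on that scale was then -0.10 in VP64_Ctrl and -0.15 in H47_KO, above the median of all genes but below 0. At 24 h the genes' medians on the same scale were 1.20, 1.91, 2.55 and 2.90 in H47_Ctrl, H47_KO, VP64_Ctrl and VP64_A, with medians over all genes of -0.21, 0.16, -0.38 and -0.29.

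IRF1 had the largest change of the genes at 6 h in both control populations. This transcription factor, which NF-κB and interferons induce and which activates many of the other genes, had 6.75, 8.85 and 5.13 CPM in the 3 H47_Ctrl libraries at 0 h, 39, 58.1 and 52.8 CPM at 6 h, 62.9, 76.9 and 56.9 CPM at 12 h and 23.4, 22.9 and 29 CPM at 24 h. Every cytokine-treated library lay above every untreated one, with log2 fold changes of 2.81 ± 0.26 (SE) at 6 h (adjusted p = 2.5e-10) and 3.21 at 12 h, and 1.83 at 24 h. In VP64_Ctrl, IRF1 went from 5.95, 3.73 and 4.04 CPM at 0 h to 55.9, 75.7 and 76.5 CPM at 6 h, a log2 fold change of 3.88 ± 0.23 (adjusted p = 5.3e-15), and stood at 3.65 at 12 h and 3.36 at 24 h over 0 h. IRF1 was the only one of the 49 genes whose mean was highest at 6 h in the activation arm, in both populations.
Of the other transcription factors of the list, IRF7, the amplifier of type I interferon production, moved later, from 4.8, 7.13 and 6.74 CPM at 0 h in VP64_Ctrl to 9.6, 10.1 and 9.27 CPM at 6 h, 38.5, 43.8 and 37.8 CPM at 12 h and 67.3, 49.3 and 45.5 CPM at 24 h. Its log2 fold change was 0.65 at 6 h and 2.69 at 12 h in VP64_Ctrl (adjusted p = 0.027 and 1.5e-12), and 1.16 and 2.44 in H47_Ctrl (adjusted p = 0.046 and 1.9e-05). STAT2 and IRF9, which are parts of ISGF3, did not pass the test at 6 h in any population. At 12 h STAT2 had risen by 0.97 in H47_Ctrl and 1.81 in VP64_Ctrl on the log2 scale, and IRF9 by 0.96 and 1.11.

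Of the 4 sensors of foreign RNA and their relatives, DDX58 was called higher at 6 h in all 4 populations, IFIH1 in 3, and DHX58 and DDX60 in none. DDX58, which encodes RIG-I, had 6.08, 10.9 and 5.94 CPM at 0 h in H47_Ctrl and 32.9, 23.1 and 27.2 CPM at 6 h (log2 fold change 1.84, adjusted p = 8.4e-06). In VP64_Ctrl it had 11.1, 10.6 and 18.4 CPM at 0 h, 52.8, 49.7 and 54.5 CPM at 6 h and 187, 133 and 149 CPM at 24 h, rising by 1.99 and then 3.58 over 0 h. IFIH1, which encodes MDA5, had 1.08, 4.19 and 1.62 CPM at 0 h in H47_Ctrl and 15.1, 7.76 and 12.5 CPM at 6 h, with log2 fold changes of 2.34, 2.53 and 2.86 at 6, 12 and 24 h. For both sensors the libraries at 6 h lay above all those at 0 h.

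Across the 4 populations, 10 of the 46 genes tested in both arms were called higher at 6 h in all of them, against 6.27% of the 10691 genes so tested. These were DDX58, DTX3L, GBP1, IRF1, PARP14, RSAD2, SAMD9L, SP100, TRIM21 and XAF1. GBP2, IFIH1 and IRF7 were called in 3 populations. Of all 49 genes, 19 were called in none, among them ISG15, IFI6, IFI27, IFIT1, IFITM1, MX2, STAT2, IRF9 and BST2. HERC5 and CMPK2 are also among the 19 but were tested in the activation arm only. GBP1, a guanylate-binding GTPase of cell-autonomous immunity, showed 75.2, 74.1 and 72.3 CPM at 0 h and 279, 487 and 637 CPM at 6 h in VP64_Ctrl, a log2 fold change of 2.66 ± 0.26 (adjusted p = 1.2e-09). PARP14, an ADP-ribosyltransferase, rose by 1.96 in H47_Ctrl and 1.84 in VP64_Ctrl at 6 h, and SAMD9L, an inhibitor of translation, by 1.88 in both. RSAD2, which encodes the antiviral enzyme viperin, had only 1.76, 0.805 and 0 CPM at 0 h in H47_Ctrl and 4.74, 3.78 and 3.19 CPM at 6 h (log2 fold change 1.98, adjusted p = 0.030). This call was lost when H47_Ctrl 0 h replicate 2 or 3, or H47_Ctrl 6 h replicate 1 or 2, was left out. RSAD2 rose further, by 3.20 at 12 h and 3.13 at 24 h in H47_Ctrl, and in VP64_Ctrl by 2.40 at 6 h. Of the 10 early genes, all of which had a promoter window, 5 held the ISRE-like letters. Of the 17 matched genes called in no population at 6 h, HERC5 and CMPK2 included, 12 did. The median log2 fold change at 24 h of the 27 genes with the letters and of the 12 without was 1.48 and 1.39 in H47_Ctrl, 1.82 and 1.76 in H47_KO, 2.75 and 2.77 in VP64_Ctrl, and 3.30 and 2.75 in VP64_A, given as a description with no test.

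Antiviral effectors had the largest changes at 24 h. The MX GTPases, which trap viral nucleocapsids, and the OAS enzymes, whose oligoadenylates activate RNase L, had the largest role medians in both control populations, with 2.51 and 2.55 in H47_Ctrl and 4.61 and 3.66 in VP64_Ctrl on the log2 scale. All 4 OAS genes and both MX genes were called higher at 24 h in each control population. OAS1 went from 1.62, 5.15 and 1.08 CPM at 0 h to 22.5, 11.2 and 46.6 CPM at 24 h in H47_Ctrl (3.32 ± 0.53 on the log2 scale, adjusted p = 2.2e-05). In VP64_Ctrl it went from 9.43, 16.4 and 19.9 CPM to 385, 260 and 267 CPM (4.34 ± 0.31, adjusted p = 8.3e-13). The libraries at the 2 times did not overlap in either population.
MX1 rose from 0.992, 3.15 and 2.55 CPM at 0 h to 43.8, 33.9 and 33 CPM at 12 h and 96, 34.3 and 57.9 CPM at 24 h in VP64_Ctrl, and from 2.7, 7.73 and 3.51 CPM to 31.2, 21.5 and 51.6 CPM between 0 and 24 h in H47_Ctrl. Its log2 fold change was 4.06 at 12 h and 4.85 at 24 h in VP64_Ctrl, and 2.91 at 24 h in H47_Ctrl. RSAD2 had the largest called change of the genes in VP64_Ctrl at 12 h and 24 h, 4.09 and 5.41, where it reached 66.4, 23.3 and 32.5 CPM from 1.41, 0.994 and 0.15 CPM. Also named by size in VP64_Ctrl at 24 h were MX2 with 4.37 and the mitochondrial nucleotide kinase CMPK2 with 4.94, although CMPK2 stood at only 5.24, 2.59 and 3.32 CPM. At 12 h the same 2 genes had changed by 3.56 and 3.60, and on log2(TPM + 1) the change of CMPK2 at 12 h was 0.56 with an adjusted p of 0.062. OAS2 changed by 2.39 at 12 h and 2.59 at 24 h in H47_Ctrl.

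ISG15, a ubiquitin-like modifier, was a late gene. It had 47.7, 46.5 and 42.7 CPM at 0 h in H47_Ctrl and 96.7, 123 and 226 CPM at 24 h (log2 fold change 1.70 ± 0.32, adjusted p = 0.00032). In VP64_Ctrl it had 48.9, 87.9 and 96.1 CPM at 0 h, 75.2, 103 and 82.9 CPM at 6 h, and 1167, 755 and 771 CPM at 24 h (3.53 ± 0.26, adjusted p = 1.5e-12). The 6 h libraries overlapped with the untreated ones, and the 24 h libraries lay above all of them. HERC6, a ligase related to the one that attaches ISG15, and USP18, the protease that removes it and dampens the receptor, were also higher at 24 h in VP64_Ctrl, by 3.66 and 3.45. Most of their rise had come by 12 h, with 3.01 and 3.34 against 1.74 for ISG15, and USP18 was already called at 6 h. HERC5, the ligase that attaches ISG15, stayed at or below 4.34 CPM in VP64_Ctrl. It was the only one of 49 genes not called at 24 h there (adjusted p = 0.077).

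The other roles followed in VP64_Ctrl, where at 24 h every tested gene of each was called, and in part in H47_Ctrl. The group of IFI6, IFI27, IFI35, IFI44 and IFI44L changed by a median of 2.95 (log2) in VP64_Ctrl and 1.59 in H47_Ctrl, where 3 of its 5 genes were called. PARP9, PARP14 and DTX3L, which act together in ADP-ribosylation and ubiquitination, had medians of 2.38 and 1.53, with 3 of 3 called in H47_Ctrl, and GBP1 and GBP2 had 2.70 and 1.44, with 2 of 2. In H47_Ctrl the smallest medians were those of TRIM21 and TRIM22 with 0.06, of the IFITM family with 0.16 and of the nuclear body proteins SP100 and SP110 with 0.24, against 2.10, 1.64 and 1.65 in VP64_Ctrl. IFITM3 had 397, 461 and 498 CPM at 0 h and 331, 564 and 620 CPM at 24 h in H47_Ctrl, which overlapped (adjusted p = 0.87), and 587, 808 and 419 CPM and then 2353, 1959 and 1361 CPM in VP64_Ctrl, which did not (1.64, adjusted p = 0.00038).

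IFIT2, of a family that binds foreign RNA, was lower at 12 h than at 0 h in both control populations. It had 29, 38.4 and 30.1 CPM at 0 h in VP64_Ctrl, 51.4, 57.8 and 85.2 CPM at 6 h, 18.4, 11.9 and 12.2 CPM at 12 h, and 416, 249 and 341 CPM at 24 h. The 12 h libraries lay below every untreated library and the others above, and the log2 fold changes of 0.96, -1.19 and 3.37 all passed the test (adjusted p = 0.0040, 0.0010 and 3.7e-12). In H47_Ctrl IFIT2 fell from 19.8, 20.4 and 14 CPM at 0 h to 6.62, 7.2 and 5.08 CPM at 12 h (-1.53, adjusted p = 0.0061). It was the only gene of the list called lower at 12 h in H47_Ctrl and in VP64_Ctrl, where 8.27% and 11.5% of all tested genes were lower, and in H47_KO it was called lower together with IFIT1, against 13% of all genes. In VP64_A none of the 49 genes was called lower at 12 h, and IFIT2 had 30.3, 26.9 and 34.1 CPM at 0 h and 22.3, 22.5 and 10.8 CPM at 12 h. IFIT1 and IFIT3 did not dip in VP64_Ctrl: IFIT1 had 202, 285 and 187 CPM at 0 h and 983, 472 and 755 CPM at 12 h, and IFIT3 had 84.6, 135 and 103 CPM and then 737, 429 and 576 CPM. In H47_Ctrl, however, IFIT1 had 77.5, 147 and 77.3 CPM at 0 h and 39.7, 72.3 and 16 CPM at 12 h. Its 12 h libraries lay below every untreated one there (log2 fold change -1.23), although the change was not called. IFIT1 changed by -1.75 in H47_KO, and IFIT3 by 0.60 in H47_Ctrl and 0.28 in H47_KO. The genes of this family, like those of the IFITM and OAS families, are close relatives, so that reads may have been shared between them.

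**Figure D3:**
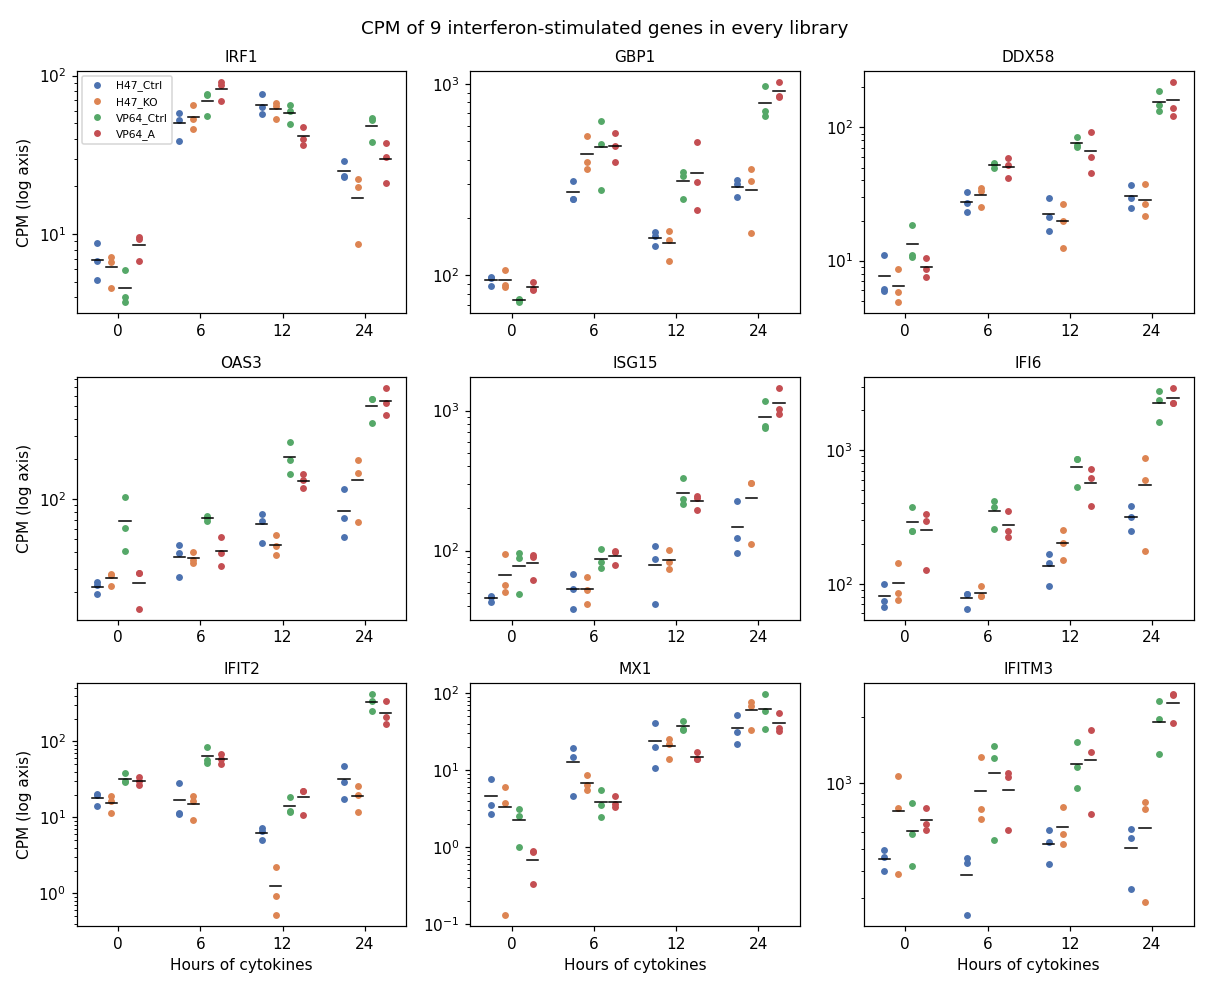
CPM of 9 of the genes in every library by hours of cytokines, on log axes that differ between panels. Points are libraries, coloured by population, and black bars are the means of 3. IRF1 is highest at 6 or 12 h, ISG15, IFI6, OAS3 and MX1 climb to 24 h, and IFIT2 dips at 12 h before its 24 h level.

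The remaining genes of the pathway moved in part with the list. Transcripts of 9 interferon ligands were hardly present: they summed to at most 2.01 CPM in any library, 7 of the 9 were under 1 CPM throughout, and IFNB1 had at most 3 counts. In all 4 populations IFNAR1, IFNAR2, IFNGR1 and IFNGR2, the subunits of the type I and type II receptors, were higher at 6 h. A list of 59 other interferon-induced genes was also chosen with earlier results of these data known. Of these, 11 of 40 tested were higher at 24 h in H47_Ctrl, 16 of 40 in H47_KO, 37 of 47 in VP64_Ctrl and 36 of 47 in VP64_A, and none was lower. In the same order, 6.53%, 9.07%, 10.4% and 9% of all tested genes were higher at 24 h. The shares of all tested genes that were lower were 3.73%, 6.78%, 5.57% and 4.55%. The 9 NF-κB feedback genes of a separate list chosen in the same way, such as NFKBIA and TNFAIP3, were all higher at 6 h in every population. Their median log2 fold changes lay between 4.07 and 5.64. Of all tested genes, 10.3%, 13.2%, 16.2% and 11.4% were higher at 6 h in H47_Ctrl, H47_KO, VP64_Ctrl and VP64_A. The part of either pathway in the change of the 49 genes was not tested.

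The second comparison asked what loss of GLIS3 did to the genes. Few differed. At 0 h none of 46 genes was called by edgeR (3 at an unadjusted p under 0.05, none by DESeq2), against 0.301% of all genes. At 6 h 1 was called against 0.319% of all, at 12 h none (4 unadjusted, 1 by DESeq2) against 0.0821%, and at 24 h none (15 unadjusted, none by DESeq2) against 0.21%. An unadjusted p under 0.05 was found for 3, 8, 4 and 15 of the 46 genes at 0, 6, 12 and 24 h. Among all 10962 tested genes it was found for 1253, 1228, 842 and 1096. The median log2 fold change of H47_KO over H47_Ctrl was 0.10, -0.09, -0.15 and 0.31 at 0, 6, 12 and 24 h. The sign of the first 3 medians turned when 1 library was left out, over the 47 or 48 genes then tested. The median at 0 h became -0.12 without H47_KO 0 h replicate 2, -0.03 without H47_Ctrl 0 h replicate 1 and -0.01 without H47_Ctrl 0 h replicate 3. That at 6 h became 0.10 without H47_Ctrl 6 h replicate 1, and that at 12 h 0.13 without H47_Ctrl 12 h replicate 2 and -0.32 without H47_Ctrl 12 h replicate 3. At 24 h 37 of the 46 lay above 0, where 52.2% of all tested genes did. The value at 24 h also moved with single libraries, to 0.15 without H47_Ctrl 24 h replicate 1 and 0.19 without H47_KO 24 h replicate 2. Without H47_KO 24 h replicate 3, the median was 0.57 and HERC6, IFI35, IFI6, OAS2 and OAS3 were called higher in H47_KO. Without H47_Ctrl 24 h replicate 3 it was 0.60 and HERC6 alone was called. HERC6 had 26.5, 24.8 and 59 CPM in H47_Ctrl at 24 h and 99.6, 106 and 41.3 CPM in H47_KO (1.12 ± 0.31, adjusted p = 0.18 with all libraries). OAS3 had 52, 72 and 120 CPM in H47_Ctrl and 157, 197 and 67.9 CPM in H47_KO, so that replicate 3 of each group reversed the order of the others. The change of the effect between 0 and 24 h was called for none of the 46 genes by edgeR (6 unadjusted, none by DESeq2) and for 0% of all genes. Its unadjusted p was under 0.05 for 616 of all 10962 genes.

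The gene called at 6 h was IFITM2, whose product restricts virus entry at the endosome. It had 118, 163 and 167 CPM in H47_Ctrl and 303, 662 and 356 CPM in H47_KO, without overlap (1.56 ± 0.34, adjusted p = 0.029). The call was lost without any 1 of H47_Ctrl 6 h replicates 1, 2 and 3 or H47_KO 6 h replicates 2 and 3, and on the TPM scale. Averaged over the 4 times, 4 of 46 genes were called, against 3.07% of all genes. IFITM1, IFITM2 and IFITM3, which lie side by side on chromosome 11, were higher in H47_KO by 0.61, 0.60 and 0.64 (adjusted p = 0.028, 0.040 and 0.027), and IFIT2 was lower by -0.87 (adjusted p = 0.012). IFITM3 had 397, 461 and 498 CPM in H47_Ctrl and 1073, 769 and 386 CPM in H47_KO at 0 h, which overlapped. At 6 h the groups were apart, at 251, 457 and 434 CPM and 684, 1315 and 759 CPM, and at 12 h they overlapped again, at 538, 614 and 427 CPM and 531, 584 and 777 CPM. IFIT2 was at its furthest apart at 12 h, with 6.62, 7.2 and 5.08 CPM in H47_Ctrl and 2.26, 0.933 and 0.522 CPM in H47_KO, which did not overlap, although the test at that time alone gave an adjusted p of 0.14 (-2.24 ± 0.56). These H47_KO values rest on few counts, in libraries of 7105884, 6514472 and 4144332 counts in total.
The averaged count of 4 fell to 1 without H47_Ctrl 0 h replicate 1, H47_Ctrl 24 h replicate 1, H47_KO 6 h replicate 2, H47_KO 12 h replicate 3 or H47_KO 24 h replicate 2. It fell to 2 without H47_Ctrl 6 h replicate 1, H47_Ctrl 12 h replicate 3, H47_KO 0 h replicate 1 or H47_KO 0 h replicate 2. IFIT2 was among the called genes in all 24 fits that left out a library but not with limma on the TPM scale, while each IFITM gene was lost in several of them.

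The third comparison asked what activation of GLIS3 did. Most of the genes called were lower. At 0 h 7 of 49 were called, against 9.41% of all tested genes, and 6 of the 7 were lower in VP64_A, against 5.12% of all. OAS3 had 41, 60.5 and 105 CPM in VP64_Ctrl and 27.8, 15.1 and 27.7 CPM in VP64_A, without overlap (-1.54 ± 0.27, adjusted p = 0.00026). OAS1 had 9.43, 16.4 and 19.9 CPM against 10.5, 3.52 and 4.12 CPM, which overlapped (-1.23, adjusted p = 0.011), and OAS2 had 12.1, 14.9 and 31.4 CPM against 11.4, 4.4 and 8.9 CPM (-1.18, adjusted p = 0.025). TRIM22, an antiviral ubiquitin ligase, was lower by -1.04, USP18 by -0.72 and IRF9 by -0.57. IRF1 alone was higher, at 9.62, 9.31 and 6.75 CPM against 5.95, 3.73 and 4.04 CPM (0.90 ± 0.24, adjusted p = 0.013). The count fell from 7 to 2 without VP64_A 0 h replicate 2 or 3, and to 1 without VP64_Ctrl 0 h replicate 3. OAS3 was among the called genes in each of the 6 fits that left out a library, and IRF1 was lost without VP64_A 0 h replicate 1, VP64_Ctrl 0 h replicate 2 or VP64_Ctrl 0 h replicate 3.

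At 6 h no gene was called by edgeR (10 at an unadjusted p under 0.05, 1 by DESeq2), against 3.76% of all, and without VP64_Ctrl 6 h replicate 1 GBP2 was. Of all 10980 genes, 1487 had an unadjusted p under 0.05 at 6 h. At 12 h 3 were called, against 4.31% of all genes. All 3 were lower in VP64_A, against 1.94% of all genes. MX1 had 43.8, 33.9 and 33 CPM in VP64_Ctrl and 17.3, 13.8 and 13.8 CPM in VP64_A, well apart (-1.33 ± 0.30, adjusted p = 0.0044). HERC6 had 153, 127 and 152 CPM against 119, 72.3 and 61.2 CPM (-0.79, adjusted p = 0.022), and IRF7 38.5, 43.8 and 37.8 CPM against 25.3, 24.4 and 25.3 CPM (-0.68, adjusted p = 0.024). The groups did not overlap for these 3 genes, which were picked by the test, so this adds no separate support. The count was 6 without VP64_A 12 h replicate 1, and 1, MX1, without VP64_A 12 h replicate 2 or 3 or without VP64_Ctrl 12 h replicate 1 or 3.
At 24 h 2 were called, against 4.13% of all. LGALS3BP, which encodes a secreted glycoprotein, had 285, 201 and 205 CPM in VP64_Ctrl and 423, 383 and 346 CPM in VP64_A (0.74 ± 0.16, adjusted p = 0.0044). IRF1 had 52.4, 53.8 and 38.2 CPM against 37.6, 30.9 and 21.2 CPM (-0.70 ± 0.20, adjusted p = 0.044). Neither of these genes, again picked by the test, overlapped between the groups. Only LGALS3BP was called without VP64_A 24 h replicate 2 or 3 or without VP64_Ctrl 24 h replicate 1. IRF1 was also lost without VP64_Ctrl 24 h replicate 2.

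Averaged over the 4 times, 14 of 49 genes were called against 18.4% of all genes, 13 of them lower in VP64_A against 9.23% of all. By role these were OAS1, OAS2 and OAS3 (-0.43, -0.52 and -0.70), MX1 (-0.86), the transcription factors IRF7 and IRF9 (-0.36 and -0.40), IFIT3 (-0.56), IFI27 (-0.96), USP18 (-0.47), DDX60 (-0.43), PARP14 (-0.34), TRIM21 (-0.34) and PLSCR1, a phospholipid scramblase (-0.33). Adjusted p-values went from 0.00020 for OAS3 to 0.037 for OAS1, and LGALS3BP was the exception with 0.47 ± 0.08 (adjusted p = 6.1e-05). IFI27, a mitochondrial protein of the same small family as IFI6, stood at 2.73, 2.73 and 6.29 CPM in VP64_Ctrl and 1.97, 1.01 and 1.81 CPM in VP64_A at 0 h, and at 65.1, 30.5 and 33.5 CPM and 41, 24 and 25.1 CPM at 24 h. Of the averaged calls, OAS1, PARP14 and DDX60 were lost most readily when a library was left out, while IFIT3, IRF7, IRF9, MX1, OAS3, PLSCR1, TRIM21, USP18 and LGALS3BP were called under each of the 30 alternatives.
The median log2 fold change of the 49 genes was -0.45 at 0 h, -0.23 at 6 h, -0.42 at 12 h and 0.07 at 24 h. At these times 12, 12, 5 and 30 of the 49 lay above 0, where 48.2%, 51.3%, 50.4% and 47.7% of all tested genes did. On log2(TPM + 1) the 24 h median was -0.23, with 9 genes above 0 rather than 30, where the median over all genes was -0.25, so that the sign at 24 h depends on the scale. It also depended on single libraries: the edgeR median was -0.13 with 22 genes above 0 without VP64_A 24 h replicate 1 and -0.0049 without VP64_Ctrl 24 h replicate 2, but 0.23 without VP64_Ctrl 24 h replicate 1 and 0.20 without VP64_A 24 h replicate 2. At 24 h the share of the 49 genes called, 4.08%, was near the 4.13% of all genes. At 12 h the share was 6.12%, against 4.31% of all genes in either direction. All of those called at 12 h were lower, where 1.94% of all genes were called lower.
Single markers of other cell types, KRT14 and CD68, were called in the same comparison. Of 6 epithelial and keratinocyte markers, 2 could be tested, and KRT14 was called higher in VP64_A at all 4 times, by 2.96 on the log2 scale at 0 h. The 6 summed to 78.6 to 97.9 CPM in VP64_A and 24.9 to 33.1 CPM in VP64_Ctrl at 0 h, while EPCAM, CDH1, KRT5 and KRT19 stayed under 1 CPM throughout. Of 9 immune cell markers, 2 could be tested, and CD68 was called lower in VP64_A at 0, 6 and 12 h, by -0.81 at 0 h, when the 9 summed to 18 to 22.1 CPM in VP64_A and 30.5 to 38.6 CPM in VP64_Ctrl. Their part in the differences between the groups was not tested.

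The effect of VP64_A changed between 0 and 24 h for 2 of the 49 genes, against 0.209% of all genes. IRF1 went from higher to lower, a change of -1.60 ± 0.31 on the log2 scale (adjusted p = 0.012), and the OAS3 difference changed by 1.67 ± 0.37 (adjusted p = 0.046). At 24 h OAS3 had 563, 372 and 563 CPM in VP64_Ctrl and 684, 431 and 529 CPM in VP64_A, which overlapped. The IRF1 call was lost without VP64_A 0 h replicate 1, VP64_A 24 h replicate 3 or VP64_Ctrl 0 h replicate 2, and the OAS3 call was kept in 3 of 12 fits that left out a library.

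**Figure D4:**
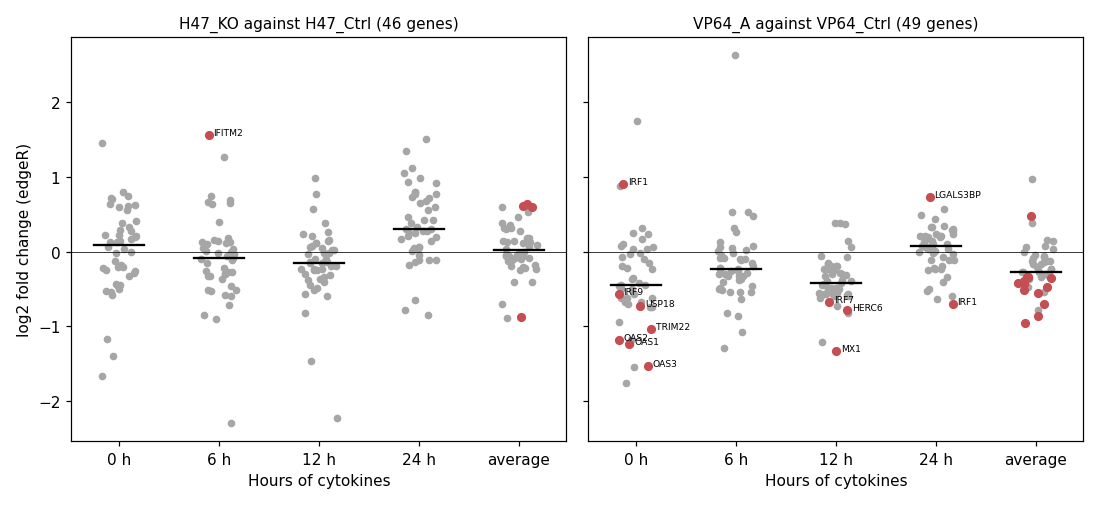
Log2 fold change (edgeR) of each gene between GLIS3-perturbed and control cells at 0, 6, 12 and 24 h of cytokines and on average, for H47_KO over H47_Ctrl (46 genes, left) and VP64_A over VP64_Ctrl (49 genes, right). Red points are called genes, grey points are not, and black bars are medians. The right-hand medians lie at -0.45, -0.23, -0.42 and 0.07, and the left-hand ones at 0.10, -0.09, -0.15 and 0.31.

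A comparison added after the values were seen set the 24 h response of VP64_Ctrl against that of H47_Ctrl in a single fit over all 48 libraries. Of the 49 genes, 11 were called, all with the larger rise in VP64_Ctrl, against 0.42% of all tested genes, and all 49 lay above 0 with a median of 1.28. The largest difference was that of TRIM22, which had 17.7, 21.7 and 21.9 CPM at 0 h and 8.37, 14.5 and 16.6 CPM at 24 h in H47_Ctrl, and 9.35, 19.1 and 11.7 CPM and then 92.8, 48 and 48.9 CPM in VP64_Ctrl (2.90 ± 0.43, adjusted p = 6.1e-05). The others were IFIT2 (2.53), IFITM1 (2.07), the nuclear body protein SP110 (1.89), ISG15 (1.84), SAMD9 (1.81), GBP1 (1.80), PLSCR1 (1.71), DDX58 (1.59), IRF1 (1.52) and IFIT5 (1.27).
The count was 16 without H47_Ctrl 24 h replicate 3. It was 5 without H47_Ctrl 24 h replicate 1 or VP64_Ctrl 24 h replicate 1, 6 without H47_Ctrl 0 h replicate 2 or H47_Ctrl 24 h replicate 2, and 7 without VP64_Ctrl 0 h replicate 1. TRIM22, GBP1, IFIT2, PLSCR1 and SAMD9 were called in each of the 12 fits that left out a library. With VP64_A in the place of VP64_Ctrl, as the titles would have it, 23 genes were called and the IRF1 difference was -0.067. DESeq2 called 13 genes, and limma on log2(TPM + 1) 3.

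**Figure D5:**
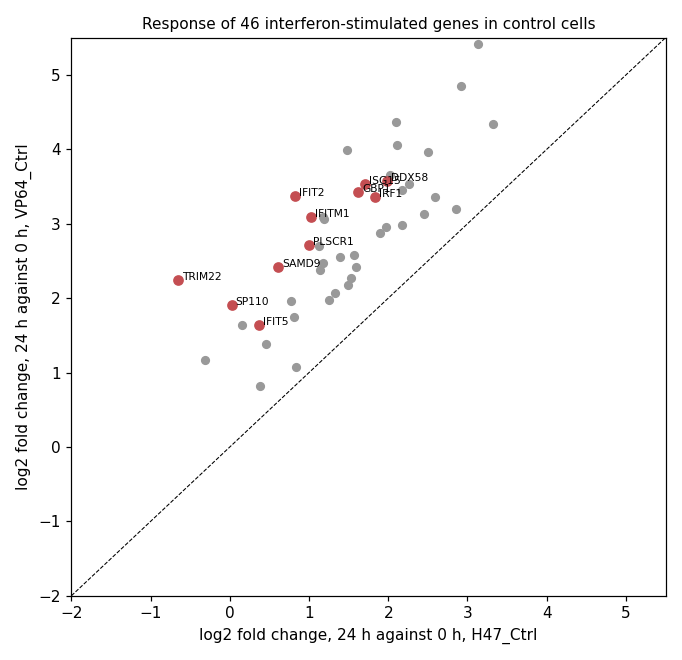
Log2 fold change at 24 h over 0 h in H47_Ctrl (horizontal axis) and VP64_Ctrl (vertical axis) for the 46 genes tested in both arms, with the line of equality dashed. Red points with names are genes whose response differed in the joint fit. All 46 points lie above the line, TRIM22 on the far left.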

How the data were processed

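The authors prepared RNA with TRIzol and Nextera XT and sequenced it on a NextSeq 500. The submitters' processing notes name bcl2fastq, FastQC, Trim Galore, STAR, Salmon, DESeq2 and build GRCh38, without roles, and the strand setting is not given in the sources used here. The deposited tables hold estimated counts per gene, of which 6.38% were not whole, and TPM by the authors. Counts were rounded and used with R 4.3.3. The main test was edgeR 4.0.16's quasi-likelihood test in each arm of 24 libraries and 8 groups, with TMM factors, filterByExpr and Benjamini-Hochberg adjustment over all 10962 (knockout) or 10980 (activation) genes kept, and over 11422 genes in the fit of both arms. Called means an adjusted p under 0.05. Other settings were DESeq2 1.42.0, the size factors of DESeq2 within edgeR, an unfiltered table, fits restricted to the compared libraries, replicate number as a block, and limma 3.58.1 after adding 1 or 0.1 to TPM before taking log2. Each library was also left out in turn. The fits were checked on data with known changes. No pair of libraries of one condition agreed within sampling noise (chi-square per degree of freedom 3.64 to 67.6 over 48 pairs). Genes and lists were chosen with earlier results of these data known. Named genes were those called in a GLIS3 comparison, and in each comparison or control time course the 5 called genes with the largest change. Others named for their role were chosen after their values were seen.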

Additional observations from a re-analysis of the deposited data

Results flagged for a closer look

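The effect of VP64_A relative to VP64_Ctrl differed between 0 h and 24 h for IRF1, with a change of -1.60 on the log2 scale, and for OAS3, with a change of 1.67, both by a test of the difference itself in edgeR (adjusted p = 0.012 and 0.046). The 24 h response differed between VP64_Ctrl and H47_Ctrl for 11 genes, again by a test of the difference, which was chosen after the data were seen and which compares separately engineered lines.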

How the results depend on the processing

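Counts of called genes are given here as the value of edgeR with all libraries, then what moved it by over 1.5 times. Without the filter on low counts, H47_KO against H47_Ctrl gave 2, 4, 2 and 9 called genes at the 4 successive times in place of 0, 1, 0 and 0, and 9 in place of 4 on average. The same setting gave 19 in place of 12 at 6 h in H47_Ctrl, 17 in place of 11 at 6 h in H47_KO, and 1 in place of 0 for the change of the H47_KO effect. For VP64_A against VP64_Ctrl it gave 13, 2, 9 and 4 in place of 7, 0, 3 and 2, 24 in place of 14 on average, 4 in place of 2 for the change of the effect, and 27 in place of 11 between the arms. DESeq2 gave 3 at 6 h, 1 at 12 h and 2 on average for H47_KO and 1 at 6 h for VP64_A, and its size factors in edgeR gave 1 for the change of the VP64_A effect. With the compared libraries alone, H47_KO gave 3 at 6 h and 1 at 12 h, and VP64_A gave 4 at 0 h, 1 at 6 h, 1 at 24 h and 0 for the change. Limma on log2(TPM + 1) and log2(TPM + 0.1) gave 0 and 0 for H47_KO at 6 h, 1 and 1 on average, 19 and 19 for H47_Ctrl at 24 h in place of 31, 14 and 16 for H47_KO at 12 h in place of 26, 16 and 16 for VP64_A against VP64_Ctrl at 0 h, 1 and 0 at 12 h, 1 and 1 at 24 h, 14 and 16 for VP64_A at 6 h over 0 h in place of 28, 0 and 0 for the change of the VP64_A effect, and 3 and 2 between the arms. On log2(TPM + 0.1) H47_Ctrl at 12 h gave 16 in place of 25. With VP64_A in place of VP64_Ctrl, 23 genes differed between the arms, and the IRF1 difference became -0.067. Apart from the effect of the filter and of the substituted group, the cause of these shifts was not tested.

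Over all tested genes, the deviations of same-numbered libraries correlated at over 0.1 in 3 of 12 pairs in each arm, so the numbers were not taken to pair the samples, although replicate 1 was the highest library for most of the 49 genes in both populations of the activation arm at 12 h and 24 h, and replicate 2 in both of the knockout arm at 0 h. With the replicate number as a block, VP64_A against VP64_Ctrl gave 1 gene at 6 h, 5 at 12 h and 4 for the change of the effect.

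Leaving out 1 library at a time gave, for H47_KO against H47_Ctrl, 0 to 0 genes at 0 h, 0 to 1 at 6 h, 0 to 0 at 12 h, 0 to 5 at 24 h, 1 to 5 on average and 0 to 0 for the change. It gave 1 to 8, 0 to 1, 1 to 6 and 1 to 2 for VP64_A against VP64_Ctrl at the 4 times, 11 to 19 on average and 0 to 2 for the change, and 5 to 16 between the arms. The time courses at 6, 12 and 24 h gave 10 to 14, 23 to 26 and 22 to 31 in H47_Ctrl, 10 to 13, 21 to 27 and 37 to 41 in H47_KO, 19 to 24, 43 to 45 and 47 to 48 in VP64_Ctrl, and 21 to 27, 43 to 44 and 47 to 49 in VP64_A. Over the named genes and their alternatives, 1143 of 1356 values kept direction and side of the threshold, 212 lost the call with the same direction, and 1 turned. With 3 libraries a condition and 2321990 to 10661004 counts each, genes of a few CPM such as RSAD2, CMPK2 and HERC5 were measured with the least precision.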

Other observations

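Among interferon-induced genes outside the list, CXCL10, a chemokine gene often used as a marker of interferon signalling, was at 0 CPM in all libraries at 0 h and was called higher at 6, 12 and 24 h in VP64_Ctrl and VP64_A (edgeR, adjusted p under 0.05). At 24 h it had means of 2.14 ± 1.05 CPM in H47_Ctrl, 0.94 ± 0.77 CPM in H47_KO, 5.84 ± 0.52 CPM in VP64_Ctrl and 5.31 ± 0.16 CPM in VP64_A (SD, n = 3). IL10RB, a receptor subunit shared by interferon-λ and other cytokines, was lower at 12 h in H47_Ctrl, H47_KO and VP64_A, where IFNAR1, IFNAR2, IFNGR1 and IFNGR2 were higher.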
